A study of Mus musculus with 6 samples.

Results

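The 65 genes described here were the abundant transcripts among those that differed between cultured muscle stem cells with and without the RNA-binding protein QKI. They were chosen by the measured values themselves. From a deposited table of 398 genes, each marked as changed by the authors' own test, the genes with at least 20 FPKM (a read fragment count scaled to the length of the transcript and to the size of the library) in both groups were taken. Of the 84 genes at or above that minimum, 19 were left out by the rule: 7 on distal chromosome 4, 7 by the form of their symbol (the integrin genes *Itga7* and *Itgb4*, the mitochondrial transcripts *mt-Nd1* and *mt-Rnr2* and 3 genes known only by a clone or model name) and 5 by name (*Qk*, *Tkt*, *Macroh2a1*, *Cd47* and *Ktn1*). Since the level and the authors' call chose the genes, their levels and differences are given as a description, with no test.

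Muscle stem cells (MuSCs) were sorted from abdominal and diaphragm muscle of adult mice as cells with ITGA7 and without CD45, CD11b or Sca1 on their surface and expanded in growth medium before polyadenylated RNA was sequenced as bulk RNA. QKI-cKO mice (the group labelled KO, 3 samples) carried QKI 2lox/2lox and Pax7-CreERT2/+, so that the recombinase was made from the locus of *Pax7*, the transcription factor that defines satellite cells. QKI-ctrl mice (labelled WT, 3 samples) carried the same floxed *Qk* alleles with Pax7+/+. Both groups were on a C57BL/6 background, were of mixed sex and received 4-hydroxytamoxifen, which means that any effect of carrying Cre cannot be told apart from that of losing QKI.

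The table holds 1 pooled FPKM value per group and gene. It gives no value for a single mouse, no read count and no library depth, so no SD, interval or test between the groups could be computed, and the spread between mice is unknown for every value below. The value columns are numbered and not named. They were assigned to the groups through 5 muscle genes that the study's text names as lower in QKI-cKO cells (*Myl1*, *Myl4*, *Myh3*, *Sspn* and *Mybph*), and every direction given here rests on that assignment. *Qk* itself was listed at 262 FPKM in QKI-cKO and 128 FPKM in QKI-ctrl MuSCs. This whole-gene value includes exons outside the floxed part, so it does not check the deletion. The paper reports loss of the floxed exon by RT-qPCR in the MuSCs used for sequencing. Of 13 MuSC and myoblast markers, the table lists *Itga7*, the laminin receptor used in the sort, at 145 FPKM in QKI-cKO and 237 FPKM in QKI-ctrl MuSCs, and *Vcam1*, one of the 65 genes. A marker missing from the table cannot be judged, because only genes called changed are listed.

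QKI belongs to the STAR family of RNA-binding proteins. It binds single-stranded RNA at a core site, ACUAAC or ACUAAU, with a short second site, UAAC or UAAU, nearby, and it is known to act on splicing, on the stability and transport of messenger RNA and on its translation. MuSCs are the resident stem cells of skeletal muscle. They lie quiescent beneath the basal lamina, enter the cell cycle after injury and, as in culture, become proliferating myoblasts before they differentiate or return to quiescence.

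Of the 65 abundant transcripts, 41 were higher in QKI-cKO MuSCs (63.1%), where 57.3% of all 398 listed genes were higher, and 24 were lower (36.9%), where 42.7% of all listed genes were lower. The differences were small. The median log2 ratio of QKI-cKO over QKI-ctrl was 0.39 among those that were higher and -0.38 among those that were lower, against 0.55 and -0.68 over all listed genes. In 53 of the 65 the log2 ratio lay within 0.5 of zero, and *Bc1* alone exceeded 1. At least 1.5-fold higher were 6 genes (*Bc1*, *Neat1*, *Sct*, *Mest*, *Tpm2* and *Rbfox2*), or 9.23% of the 65, where 25.6% of all listed genes were. At least 1.5-fold lower were *Egr1* and *C1qtnf3*, or 3.08%, where 26.6% of all listed genes were. As every listed gene had passed the authors' test, the smallest log2 ratio among the 65 was 0.29 in size, and nothing is read from these shares about the abundant transcripts. The paper states a minimum log fold change for changed genes, with different values in its results and methods. Taken as log2 values, both are larger than the ratio of 64 of the 65 genes. Being listed is thus not the same as passing that minimum.

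**Figure D1:**
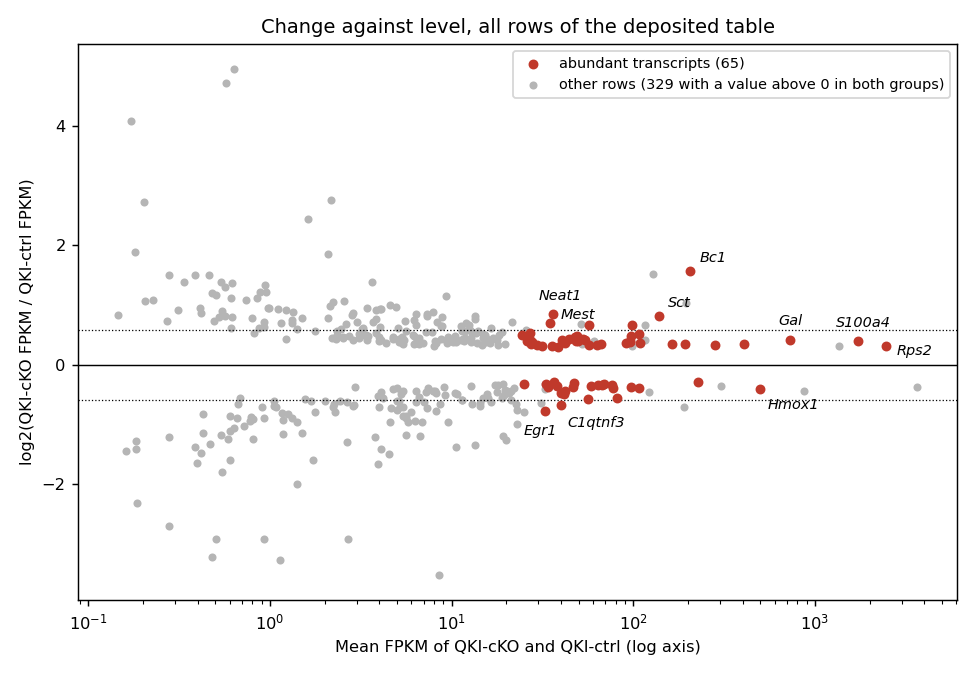
Each point is 1 gene of the deposited table. The horizontal axis gives the mean FPKM of QKI-cKO and QKI-ctrl MuSCs on a log scale, the vertical axis the log2 ratio of QKI-cKO over QKI-ctrl, red points are the 65 abundant transcripts, grey points the 329 other genes with a value above 0 in both groups, and dotted lines mark a 1.5-fold difference. The abundant transcripts form 2 narrow bands on either side of zero, with *Bc1* at 1.58 the farthest above and *Egr1* at -0.78 the farthest below.

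The levels of the 65 genes ran from 22.3 to 2725 FPKM in QKI-cKO MuSCs (median 56.4) and from 20.3 to 2185 FPKM in QKI-ctrl MuSCs (median 50.4). Over all listed genes the medians were 6.17 FPKM in QKI-cKO and 6.29 FPKM in QKI-ctrl MuSCs. Between a mean of 20 and 50 FPKM there were 31 genes, 19 higher and 12 lower in QKI-cKO MuSCs. Between 50 and 100 FPKM there were 20, of which 11 were higher and 9 lower. From 100 FPKM there were 14, of which 11 were higher and 3 lower. Higher genes made up 63.1% of the 65 and 57.3% of all listed genes. The genes were chosen by these same values, so no trend with level is read from the counts. Summed over the 65 genes the level was 10835 FPKM in QKI-cKO and 9093 FPKM in QKI-ctrl MuSCs. *Rps2* and *S100a4* made up 43.2% of this sum in QKI-cKO and 40.4% in QKI-ctrl MuSCs.

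Nearest to the minimum on the inside were *Scand1* (28.5 FPKM in QKI-cKO, 20.3 FPKM in QKI-ctrl), *Adgrg3* (32.0 FPKM in QKI-cKO, 22.0 FPKM in QKI-ctrl), *Dapk2* (22.3 FPKM in QKI-cKO, 27.8 FPKM in QKI-ctrl) and *Pgf*. Just outside it were *Dynlt3* (19.2 FPKM in QKI-cKO, 25.0 FPKM in QKI-ctrl), *Angptl4* (18.2 FPKM in QKI-cKO, 31.6 FPKM in QKI-ctrl), *Adam19* (18.02 FPKM in QKI-cKO, 24.46 FPKM in QKI-ctrl) and *Tspan12* (17.6 FPKM in QKI-cKO, 27.7 FPKM in QKI-ctrl).

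**Figure D2:**
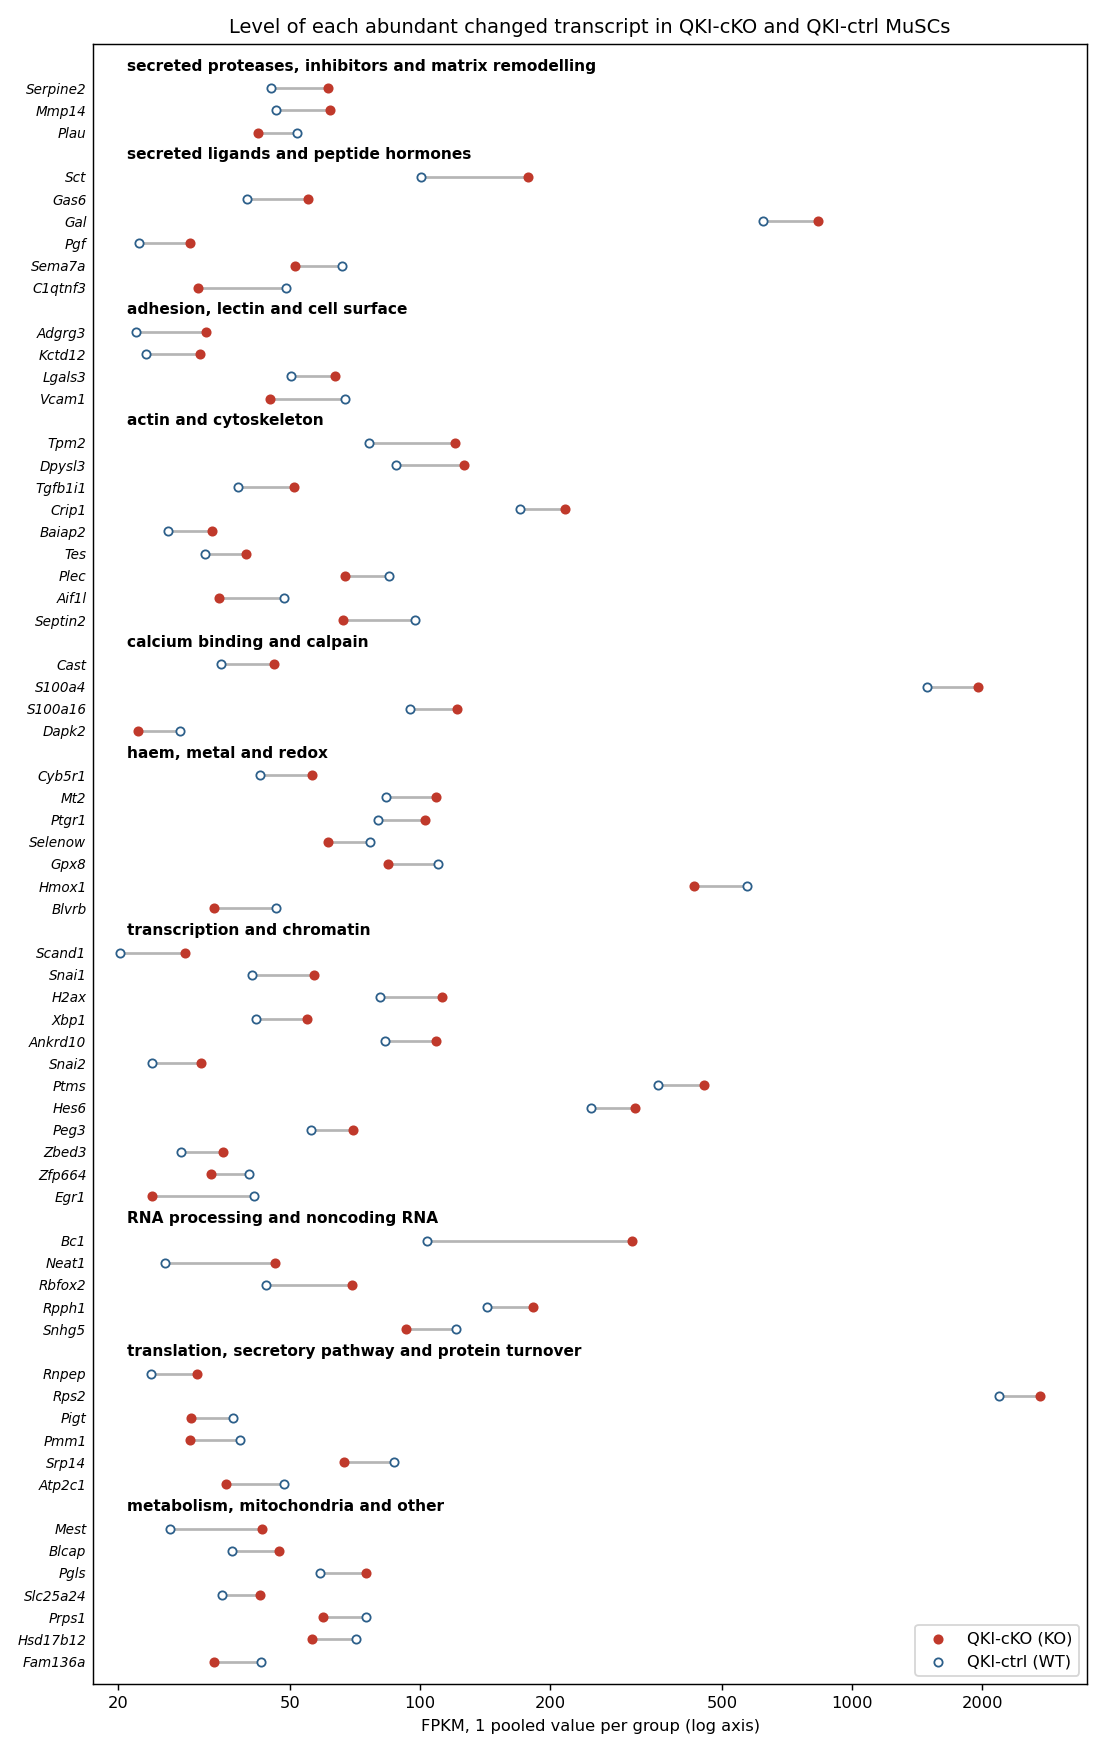
Each row is 1 of 63 of the 65 genes, grouped by role and ordered by log2 ratio within a role. The horizontal axis gives FPKM on a log scale, with filled red points for QKI-cKO and open blue points for QKI-ctrl MuSCs, 1 pooled value per group and no error bars because the table holds no value for single mice. The gap is widest for *Bc1* (309 FPKM in QKI-cKO, 104 FPKM in QKI-ctrl), and *Rps2* and *S100a4* lie far to the right of all other genes.

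Among noncoding RNAs and RNA-binding proteins, QKI-cKO MuSCs had more of 4 genes and less of 1, where 57.3% of all listed genes were higher. *Bc1*, a small cytoplasmic RNA made by RNA polymerase III and known from rodent neurons as a repressor of translation, was at 309 FPKM in QKI-cKO and 104 FPKM in QKI-ctrl MuSCs, a log2 ratio of 1.58. It was the largest ratio of the 65. The gene is a single exon of 168 bases at chr7:144914470-144914637 on the plus strand of GRCm38 (GENCODE vM21, lincRNA). Its annotated RNA is shown because of this ratio and because of its inner stretch of A. Capitals mark bases 77 to 126, the window of 50 bases richest in A, with 43 A, and the longest run of A is 23 bases.
*Bc1*: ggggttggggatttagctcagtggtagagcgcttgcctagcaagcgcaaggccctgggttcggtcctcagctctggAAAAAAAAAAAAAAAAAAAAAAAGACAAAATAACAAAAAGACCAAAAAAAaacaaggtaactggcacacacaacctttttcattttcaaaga
The libraries were made from RNA selected by its poly(A) tail, and the part of the A-rich stretch in the measured level was not tested. *Bc1* is also the source of a family of dispersed repeats in rodent genomes, so reads of the gene and of its copies may be shared, and its value is uncertain for that reason. A level scaled to a length of only 168 bases is uncertain as well, and so is the place of *Bc1* among the abundant transcripts.

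*Neat1*, the long RNA on which paraspeckles are built in the nucleus, was at 46.2 FPKM in QKI-cKO and 25.7 FPKM in QKI-ctrl MuSCs, a log2 ratio of 0.84. *Rpph1*, the RNA of the ribonuclease P that trims the 5′ end of transfer RNAs, was at 183 FPKM in QKI-cKO and 143 FPKM in QKI-ctrl MuSCs (log2 ratio 0.35). *Ccnb1ip1* overlaps it on the same strand, so its reads may not be separable from those of that gene. The annotated *Rpph1* RNA has 319 bases, and a level scaled to so short a length is uncertain. How the selection of RNA by its poly(A) tail shaped this value was not tested either. *Snhg5*, a host of small nucleolar RNAs, was lower, at 92.7 FPKM in QKI-cKO and 121 FPKM in QKI-ctrl MuSCs (log2 ratio -0.38). Of 12 noncoding RNAs listed for comparison, these 4 were in the table.

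*Rbfox2*, a splicing factor that binds UGCAUG and acts in muscle and brain, was at 69.7 FPKM in QKI-cKO and 44.1 FPKM in QKI-ctrl MuSCs, a log2 ratio of 0.66. Its paralogue *Rbfox1*, the form of mature muscle and neurons, was listed far lower, at 1.16 FPKM in QKI-cKO and 0.534 FPKM in QKI-ctrl MuSCs (log2 ratio 1.12). Both listed members of the 3-gene RBFOX family were thus higher in QKI-cKO MuSCs, where 57.3% of all listed genes were higher.

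The secreted ligands and hormones held 4 genes that were higher and 2 that were lower, where 57.3% of all listed genes were higher. *Sct*, which encodes the gut hormone secretin, was at 178 FPKM in QKI-cKO and 100.3 FPKM in QKI-ctrl MuSCs (log2 ratio 0.82). *Gal*, which encodes the neuropeptide galanin, was the third most abundant of the 65 genes, at 831 FPKM in QKI-cKO and 621 FPKM in QKI-ctrl MuSCs (log2 ratio 0.42). Of 14 peptide hormone genes, 4 were in the table. All 4 were higher in QKI-cKO MuSCs, where 57.3% of all listed genes were higher. The others were *Ucn2* (0.887 FPKM in QKI-cKO, 0.342 FPKM in QKI-ctrl) and *Qrfp* (2.75 FPKM in QKI-cKO, 1.94 FPKM in QKI-ctrl), both of them at low levels.

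*Gas6*, the ligand of the TAM receptors Tyro3, Axl and Mertk, was at 55.2 FPKM in QKI-cKO and 39.9 FPKM in QKI-ctrl MuSCs (log2 ratio 0.47). *Pgf*, the placental growth factor of the VEGF family, was at 29.4 FPKM in QKI-cKO and 22.4 FPKM in QKI-ctrl MuSCs (log2 ratio 0.39). Each was the single listed gene of its pathway, of 5 TAM genes and 10 VEGF genes. *C1qtnf3*, which encodes a secreted relative of adiponectin, was lower, at 30.6 FPKM in QKI-cKO and 48.9 FPKM in QKI-ctrl MuSCs (log2 ratio -0.68). *Sema7a*, a membrane-anchored semaphorin that signals through integrins, was at 51.5 FPKM in QKI-cKO and 66.0 FPKM in QKI-ctrl MuSCs (log2 ratio -0.36).

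The genes of proteolysis outside the cell were split, and 3 of 12 genes of plasminogen activation were listed. *Plau*, the urokinase that turns plasminogen into plasmin, was at 42.2 FPKM in QKI-cKO and 52.0 FPKM in QKI-ctrl MuSCs (log2 ratio -0.30). *Serpine2* (protease nexin), an inhibitor of thrombin and urokinase, was higher, at 61.2 FPKM in QKI-cKO and 45.1 FPKM in QKI-ctrl MuSCs (log2 ratio 0.44). *Mmp14*, a membrane-bound collagenase that activates pro-MMP2, was at 61.8 FPKM in QKI-cKO and 46.5 FPKM in QKI-ctrl MuSCs (log2 ratio 0.41). The only other listed gene of 10 matrix metalloproteinases and inhibitors, *Mmp9*, was at 1.34 FPKM in QKI-cKO and 2.03 FPKM in QKI-ctrl MuSCs.

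At the cell surface, *Vcam1*, an adhesion molecule of quiescent and activated MuSCs that binds integrin on other cells, was at 44.9 FPKM in QKI-cKO and 67.1 FPKM in QKI-ctrl MuSCs (log2 ratio -0.58). With *Itga7* it was 1 of 2 listed MuSC markers, both lower, where 42.7% of all listed genes were lower. Nothing is read from 2 genes. The adhesion receptor *Adgrg3* (log2 ratio 0.54) and *Kctd12*, an auxiliary subunit of GABA-B receptors (0.42), were higher. *Lgals3*, which encodes the galactose-binding lectin galectin-3, was at 63.7 FPKM in QKI-cKO and 50.4 FPKM in QKI-ctrl MuSCs (log2 ratio 0.34). *Lgals3* is abundant in macrophages too, although the sort had removed cells with CD45 or CD11b before culture. Of 13 macrophage markers 3 were listed, each higher in QKI-cKO MuSCs, where 57.3% of all listed genes were higher. The others beside *Lgals3* were *Laptm5* (19.9 FPKM in QKI-cKO, 12.9 FPKM in QKI-ctrl) and *Gpnmb* (4.56 FPKM in QKI-cKO, 3.15 FPKM in QKI-ctrl). *Laptm5* lies on distal chromosome 4, a region left out by the rule. The defining markers *Ptprc* (CD45), *Itgam* (CD11b), *Adgre1* and *Csf1r* were not in the table and cannot be judged. In bulk RNA, more cells of a type and more RNA per cell cannot be told apart, and the part of macrophage RNA in the value of *Lgals3* was not tested. Of the markers of other cell types, the table lists 1 of 7 for endothelium (*Esm1*, lower), 1 of 7 for smooth muscle (*Rgs4*, higher), 1 of 6 for Schwann cells (*Ngfr*, higher) and 0 of 6 for fibro-adipogenic progenitors.

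Of the 9 genes of the actin cytoskeleton and its links, 6 were higher in QKI-cKO MuSCs, where 57.3% of all listed genes were higher. The other 3 were lower. *Tpm2*, which encodes a tropomyosin that winds along actin filaments, was at 121 FPKM in QKI-cKO and 76.1 FPKM in QKI-ctrl MuSCs (log2 ratio 0.66) and was the only listed tropomyosin of 4. *Dpysl3*, a CRMP protein that couples semaphorin signals to the cytoskeleton, was at 126 FPKM in QKI-cKO and 88.2 FPKM in QKI-ctrl MuSCs (0.52). Its relative *Dpysl2*, the other listed gene of 5 in this family, was higher as well, at 6.07 FPKM in QKI-cKO and 4.78 FPKM in QKI-ctrl MuSCs. The LIM domain genes *Tgfb1i1* (Hic-5, a focal adhesion protein, log2 ratio 0.43), *Crip1* (0.34) and *Tes* (testin, 0.32) were all higher, as was *Baiap2* (0.34), whose protein bends membrane at filopodia.

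The lower cytoskeletal genes were *Septin2*, *Aif1l* and *Plec*. *Septin2*, a GTP-binding protein of septin filaments, was at 66.3 FPKM in QKI-cKO and 97.2 FPKM in QKI-ctrl MuSCs (log2 ratio -0.55). The annotation holds a second gene entry that overlaps it on the same strand, so reads may be split between the entries and this value is uncertain. *Aif1l*, an actin-binding protein, had a log2 ratio of -0.50, and *Plec*, the plectin that ties intermediate filaments to adhesion sites, one of -0.34. The table lists 9 of 12 genes of differentiated muscle, all lower in QKI-cKO MuSCs, where 42.7% of all listed genes were lower. The direction of 4 of the 9 (*Myl1*, *Myl4*, *Myh3* and *Mybph*) was fixed by the assignment of the columns, which used them, so it is no result. The rest are genes of the same class, so their direction is no independent result either. None of these 9 reached the FPKM minimum, the highest being *Mylpf* at 5.90 FPKM in QKI-cKO and 15.3 FPKM in QKI-ctrl MuSCs.

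The calcium-binding genes were led by *S100a4*, an EF-hand protein that binds non-muscle myosin, at 1957 FPKM in QKI-cKO and 1492 FPKM in QKI-ctrl MuSCs (log2 ratio 0.39). The nearby gene *S100a16* was at 122 FPKM in QKI-cKO and 94.9 FPKM in QKI-ctrl MuSCs (0.36). The annotated genes lie 0.0606 Mb apart on chromosome 3 and were the only listed genes of 15 S100 genes. The ratio between them was close in both groups, 16.04 in QKI-cKO and 15.72 in QKI-ctrl MuSCs. Of the 41 higher genes, 33 had a log2 ratio below 0.5 and none below 0.29. A close ratio is thus not particular to this pair, and nothing is read from it. *Cast*, the calpastatin that inhibits calpains, was at 46.0 FPKM in QKI-cKO and 34.7 FPKM in QKI-ctrl MuSCs (0.41), and no calpain was listed among the 5 genes of this group. *Dapk2*, a calmodulin-regulated kinase, was lower (log2 ratio -0.32).

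Of 14 genes of haem breakdown and the NRF2 response 3 were listed, and they did not share a direction. *Hmox1*, the inducible haem oxygenase, was among the most abundant genes, at 432 FPKM in QKI-cKO and 571 FPKM in QKI-ctrl MuSCs (log2 ratio -0.40). *Blvrb*, a reductase of flavins and of the beta isomer of biliverdin, was at 33.4 FPKM in QKI-cKO and 46.4 FPKM in QKI-ctrl MuSCs (log2 ratio -0.48). The third, *Ptgr1*, an NADPH-dependent reductase of lipid aldehydes and eicosanoids, was higher, at 103 FPKM in QKI-cKO and 80.1 FPKM in QKI-ctrl MuSCs (0.36).

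Other redox genes were also divided. *Gpx8*, a peroxidase of the endoplasmic reticulum, was at 84.4 FPKM in QKI-cKO and 110 FPKM in QKI-ctrl MuSCs (log2 ratio -0.38), and *Selenow*, a small selenoprotein abundant in muscle, was at 61.2 FPKM in QKI-cKO and 76.4 FPKM in QKI-ctrl MuSCs (-0.32). *Mt2*, a metallothionein that binds zinc and copper, was at 109 FPKM in QKI-cKO and 83.5 FPKM in QKI-ctrl MuSCs (0.38). Of 7 genes of metallothioneins and zinc handling the other listed one, the zinc exporter *Slc30a1*, was at 2.57 FPKM in QKI-cKO and 3.31 FPKM in QKI-ctrl MuSCs. *Cyb5r1*, a flavoprotein reductase, had a log2 ratio of 0.40.

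Among regulators of transcription and chromatin, 10 were higher and 2 lower in QKI-cKO MuSCs, where 57.3% of all listed genes were higher. The zinc finger repressors *Snai1* and *Snai2*, which repress E-cadherin in epithelial to mesenchymal transitions, were both higher. *Snai1* was at 56.9 FPKM in QKI-cKO and 40.8 FPKM in QKI-ctrl MuSCs (log2 ratio 0.48), and *Snai2* at 31.2 FPKM in QKI-cKO and 24.0 FPKM in QKI-ctrl MuSCs (0.38). They were the only listed genes of 7 factors of that transition. *Hes6*, an inhibitor of Hes1 that favours myogenic and neuronal differentiation, was at 314 FPKM in QKI-cKO and 249 FPKM in QKI-ctrl MuSCs (0.34), while *Heyl*, a Notch target and the other listed gene of 7 HES and HEY factors, was at 1.59 FPKM in QKI-cKO and 2.42 FPKM in QKI-ctrl MuSCs. *Heyl* lies on distal chromosome 4, a region left out by the rule.

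*Egr1*, an immediate early zinc finger factor induced by serum and growth factors, showed the lowest ratio of the 65 genes, at 24.0 FPKM in QKI-cKO and 41.2 FPKM in QKI-ctrl MuSCs (log2 ratio -0.78). Of 18 immediate early genes 5 were listed, and the other 4 were higher in QKI-cKO MuSCs, where 57.3% of all listed genes were higher. *Jund* was at 17.2 FPKM in QKI-cKO and 12.5 FPKM in QKI-ctrl MuSCs, and *Ier5l* at 22.6 FPKM in QKI-cKO and 15.4 FPKM in QKI-ctrl MuSCs, with *Ier5* and *Klf2* at log2 ratios of 0.37 and 0.46. *Egr1* was the only listed gene of this class that was lower. The other 4 were all below the minimum of 20 FPKM in QKI-ctrl MuSCs, and nothing is read from so few genes.

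*Xbp1*, the factor whose messenger RNA is spliced by Ern1 when unfolded proteins accumulate, was at 54.8 FPKM in QKI-cKO and 41.7 FPKM in QKI-ctrl MuSCs (log2 ratio 0.39). *Ern1* itself was at 13.6 FPKM in QKI-cKO and 9.96 FPKM in QKI-ctrl MuSCs (0.45), and these were the only listed genes of 14 in the unfolded protein response. A level of *Xbp1* does not give its spliced form. *H2ax*, the histone variant phosphorylated at DNA breaks, was at 113 FPKM in QKI-cKO and 80.8 FPKM in QKI-ctrl MuSCs (0.48). The histone-binding acidic protein gene *Ptms* was at 455 FPKM in QKI-cKO and 356 FPKM in QKI-ctrl MuSCs (0.35). *Scand1*, *Ankrd10* and *Zbed3* were higher with log2 ratios of 0.49, 0.39 and 0.32, and the zinc finger gene *Zfp664* was lower (-0.29).

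Of 15 imprinted genes 5 were listed, 3 of them among the abundant transcripts. All 5 were higher in QKI-cKO MuSCs, where 57.3% of all listed genes were higher. *Mest*, expressed from the paternal allele, was at 43.0 FPKM in QKI-cKO and 26.5 FPKM in QKI-ctrl MuSCs (log2 ratio 0.70). *Peg3*, a paternally expressed zinc finger gene known to mark muscle and other stem cells, was at 70.0 FPKM in QKI-cKO and 55.9 FPKM in QKI-ctrl MuSCs (0.33), and *Blcap* at 47.1 FPKM in QKI-cKO and 36.7 FPKM in QKI-ctrl MuSCs (0.36). *Cdkn1c* and *Peg13* had lower levels and log2 ratios of 0.93 and 0.61.

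Translation, the secretory pathway and protein turnover held 2 higher and 5 lower genes, where 42.7% of all listed genes were lower. *Rps2*, a protein of the small ribosomal subunit, was the most abundant of the 65 genes, at 2725 FPKM in QKI-cKO and 2185 FPKM in QKI-ctrl MuSCs (log2 ratio 0.32). It has many annotated pseudogene copies, so its reads may be shared with them and the value is uncertain. *Srp14*, a protein of the signal recognition particle, was at 66.8 FPKM in QKI-cKO and 87.0 FPKM in QKI-ctrl MuSCs (-0.38). *Atp2c1*, the calcium and manganese pump of the Golgi, was at 35.6 FPKM in QKI-cKO and 48.4 FPKM in QKI-ctrl MuSCs (-0.44). *Pmm1*, a phosphomannomutase, and *Pigt*, a subunit of the GPI transamidase, were lower with log2 ratios of -0.38 and -0.33, and the aminopeptidase gene *Rnpep* was higher (0.35).

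The metabolic enzymes differed in both directions. *Pgls*, the lactonase of the pentose phosphate pathway, was at 74.9 FPKM in QKI-cKO and 58.7 FPKM in QKI-ctrl MuSCs (log2 ratio 0.35). *Prps1*, which uses the ribose phosphate of that pathway to make the precursor of nucleotides, was at 59.7 FPKM in QKI-cKO and 75.1 FPKM in QKI-ctrl MuSCs (-0.33). Of 10 genes of the pathway 4 were listed, and the other 2, *H6pd* and *Tkt*, were higher. *H6pd* lies on distal chromosome 4, a region left out by the rule, and *Tkt* was left out by name. *Slc25a24*, a mitochondrial carrier of ATP-Mg and phosphate, had a log2 ratio of 0.29, *Hsd17b12*, an enzyme of fatty acid elongation, one of -0.34, and *Fam136a*, a mitochondrial protein gene, one of -0.36.

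All 65 genes matched the annotation by gene ID, 61 as protein-coding, 2 as lincRNA, 1 as a ribozyme and 1 as a processed transcript. They lay on 19 chromosomes, with at most 7 on any of them (chromosome 2). With 1 transcript taken per gene, the median length was 2021 bases for the genes that were higher and 2340 bases for those that were lower, against 2568 bases over all 21866 protein-coding genes. Transcripts of at most 1000 bases made up 9 of the 41 higher and 2 of the 24 lower genes. The 5 single-exon genes (*Bc1*, *Neat1*, *Rpph1*, *Kctd12* and *H2ax*) were all higher. Short and single-exon transcripts were not counted over all 398 listed genes, of which 57.3% were higher. Nothing is read from these counts for that reason. Another annotated gene on the same strand lay within the listed locus of 19 of the 65, including *S100a2* and *S100a3* beside *S100a4* and *Parp10* beside *Plec*, so part of the reads of these loci may belong to a neighbour. A gene on the opposite strand overlapped 18 of the 65. The libraries kept the strand, but whether the authors' counting used it is not given in the sources used here.

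The mature transcripts were then searched on the sense strand for the QKI response element, taken as ACTAAC or ACTAAT in DNA letters, followed after 1 to 20 bases by TAAC or TAAT. This search, its comparisons and the core-only count were chosen after the values of the 65 genes were known. Introns were not searched. The paper looked for such elements in introns beside alternatively spliced exons, so its counts and those given here cover different sequences. The full element was present in 5 of the 23 protein-coding genes that were lower in QKI-cKO MuSCs (21.7%) and in 0 of the 38 that were higher, where 9.28% of all protein-coding genes held it. The 5 genes were *C1qtnf3*, *Atp2c1*, *Gpx8*, *Plec* and *Zfp664*, each with 1 element, and all 5 elements lay in the 3′ UTR. The elements are shown because they carry this difference in counts, with the core and the second site in capitals and the position of each gene in GRCm38 (GENCODE vM21).
*C1qtnf3* (gene at chr15:10952332-10980150, plus strand, transcript bases 1950 to 1975): ACTAATgttcacaaatcaacttTAAT
*Atp2c1* (chr9:105403539-105527319, minus strand, transcript bases 4718 to 4747): ACTAATgacttcccagttagtattgtTAAT
*Gpx8* (chr13:113042753-113046410, minus strand, transcript bases 1000 to 1017): ACTAACtctagctgTAAT
*Plec* (chr15:76170974-76232574, minus strand, transcript bases 14402 to 14415): ACTAACacatTAAT
*Zfp664* (chr5:124862691-124902693, plus strand, transcript bases 3970 to 3993): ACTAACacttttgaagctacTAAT

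The core alone, which the full element contains, was present in 12 of the 23 lower genes (52.2%) and in 10 of the 38 higher genes (26.3%), where 41.8% of all protein-coding genes held it. Among the other listed protein-coding genes, the full element was in 16 of the 105 that were lower (15.2%) and in 10 of the 164 that were higher (6.10%). In the subset of these with at least 10 FPKM in both groups, it was in 6 of 28 lower genes (21.4%) and 1 of 34 higher genes (2.94%). Longer transcripts held the element more often, with 1.67% of all protein-coding genes up to 1000 bases and 19.4% over 4000 bases. Over 4000 bases, 3 of 7 of the abundant genes held it, and all 3 (*Atp2c1*, *Plec* and *Zfp664*) were lower genes. The median length was 2342 bases for the lower and 2060 bases for the higher coding genes of the 65. The counts of lower and higher genes were not matched for length. When any coding transcript of a gene was allowed to hold the element, *Lgals3* was added to the higher genes, making 1 of 38, and the lower genes stayed the same 5. A match is a run of letters and not a shown binding site, and no test of these counts was made.

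**Figure D3:**
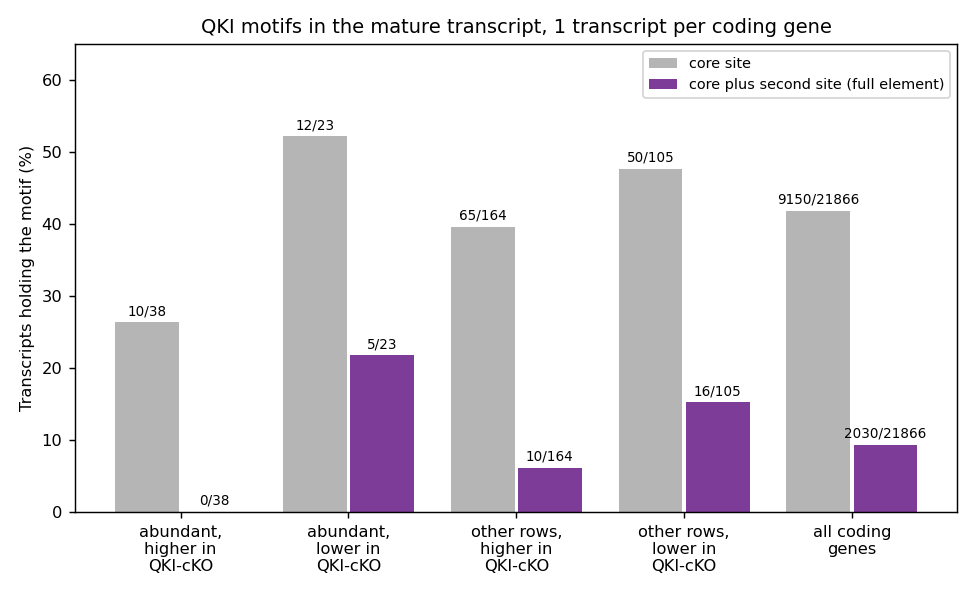
Bars give the percentage of protein-coding genes whose transcript holds the core site (grey) or the full QKI response element (purple), with the number of genes above each bar. The groups are the abundant transcripts and the other listed genes, each split into higher and lower in QKI-cKO MuSCs, and all protein-coding genes. The full element was in 5 of 23 lower and 0 of 38 higher abundant genes, and in 16 of 105 lower and 10 of 164 higher other genes.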

How the data were processed

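The deposited table holds FPKM values that the authors computed with Cufflinks from paired-end, strand-specific, poly(A)-selected libraries trimmed with Trimmomatic and aligned with STAR to the mouse genome (GRCm38). It has 1 pooled FPKM value for each group of 3 samples and lists only genes that the authors called changed. Its fold change, test statistic, p and q columns are the authors' own comparison and were not used. Depth per sample is unknown, and precision cannot be given.

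Log2 ratios of QKI-cKO over QKI-ctrl were computed without a pseudocount in Python 3.11.15 (numpy 2.4.6, matplotlib 3.10.9) and checked on simulated data. The design foresaw no test, because each group has 1 value. The 65 genes and the 26 gene lists were chosen with earlier results of these data known, so no pattern in them is independent support. All of the 65 were to be named, but 2 are counted and not reported here one by one. Positions, lengths and transcript sequences came from GENCODE vM21 (GRCm38), with the APPRIS principal, then basic, then longest transcript per gene. Starts in the table count from 0, and annotated positions counting from 1 are printed. Alternatives were FPKM minimums of 10, 30 and 50, a minimum on the mean of the groups, pseudocounts of 1 and 10 FPKM and leaving out loci that hold another gene on the same strand. The search of any coding transcript for the response element was added after seeing the data.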

Additional observations from a re-analysis of the deposited data

How the results depend on the processing

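No value for a single mouse is given, so no replicate could be left out, and no filter-free or rescaled table could be made from a list of selected genes. No paired analysis was possible because the table has 1 pooled value per group. With pseudocounts of 1 and 10 FPKM, 0 of the 65 genes changed direction, and the largest shift of a log2 ratio was 0.19, with *Bc1* at 1.49 and *Egr1* at -0.59 under 10 FPKM. With an FPKM minimum of 10 (102 genes), 62 were higher, 40 lower and 15 at least 1.5-fold different, against 41, 24 and 8 of 65. With a minimum of 50 (30 genes), the counts were 19, 11 and 3. With a minimum of 30 (51 genes), 31 were higher, 20 lower and 5 at least 1.5-fold different. With a minimum of 20 on the mean of the groups (75 genes), 42 were higher, 33 lower and 14 at least 1.5-fold different, so that 56.0% were higher, against 63.1% of the 65 and 57.3% of all listed genes. With a pseudocount of 10 FPKM, 5 of the 65 were at least 1.5-fold different. Without loci that hold another gene on the same strand (46 genes), 27 were higher and 5 at least 1.5-fold different. The median log2 ratio was 0.39 among the higher and -0.38 among the lower genes. It was 0.40 and -0.42 with a minimum of 10, 0.36 and -0.36 with a minimum of 50 and 0.34 and -0.31 with a pseudocount of 10 FPKM, and among the lower genes it was -0.37 with a pseudocount of 1 FPKM and -0.36 without the overlapping loci. With no spread between mice, these shifts cannot be weighed. With any coding transcript searched, 1 higher gene held a QKI response element in place of 0.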
